A study of Rattus norvegicus with 16 samples.

Results

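The genes described here are 6 protein-coding genes of the mitochondrial DNA of the rat, namely Mt-co1 (ENSRNOG00000034234), Mt-co2 (ENSRNOG00000030371), Mt-co3 (ENSRNOG00000030700), Mt-atp6 (ENSRNOG00000031979), Mt-atp8 (ENSRNOG00000033299) and Mt-cyb (ENSRNOG00000031766). The counts are per gene, and each gene is called an mRNA below. Mt-atp6 and Mt-atp8 overlap, so their counts need not come from separate RNA molecules. They were selected by identifier and not by their values, though with earlier results of these data known. The count table lists 32883 genes, and all 6 were among the 17172 genes tested. The count table lists identifiers only, so the symbols are those given with the selection and were not checked against a genome. The study used 4 male Wistar rats aged 3 months, for which the labels name no treatment. By laser capture microdissection (LCM), the granular layer of the dentate gyrus (DG) and the pyramidal layers of the fields CA1, CA2 and CA3 were cut from stained sections. Every subfield has 4 deposited libraries of total RNA, called replicates 1 to 4, and the labels do not name the rat of each. The dissected layers are tissue, and they can hold glia, interneurons and processes of other neurons besides the principal cells.

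Oxidative phosphorylation makes most of the ATP that a neuron spends on ion pumping and synaptic transmission. Electrons pass along the complexes of the inner mitochondrial membrane, which pump protons across it, and ATP synthase lets these protons flow back to drive the making of ATP. A few core subunits of this chain are encoded by the mitochondrial DNA, which is transcribed into long precursors that are then cleaved into separate RNAs, and the other subunits are encoded in the nucleus. Mt-co1, Mt-co2 and Mt-co3 encode core subunits of cytochrome c oxidase (complex IV), the enzyme that passes electrons to oxygen. Mt-atp6 and Mt-atp8 encode membrane subunits of ATP synthase (complex V), and Mt-cyb encodes cytochrome b of complex III, which passes electrons on to cytochrome c.

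The deposited columns held between 3216512 and 11933279 counts. The identifiers ENSRNOG00000043866 and ENSRNOG00000030478 together took 16.1% to 31.1% of the counts of a column and were left out of the column sums, which then ranged from 2474076 to 9528305. In CA2, replicates 2 and 4 differed by less than sampling noise (0.9997 chi-square units per degree of freedom over genes), and in DG replicates 2 and 4 gave 1.03, a slight excess over it (chi-square p = 0.00345), against 2.20 to 15.9 in the other 22 pairs of a subfield. Each of these pairs was summed and counted as 1 sample, so that n = 4 for CA1 and CA3 and n = 3 for CA2 and DG. The subfield labels were checked with marker genes, which the study had picked as markers on these samples, so the check is not independent. Prox1, a transcription factor of granule cells, reached 450.2 ± 76.5 CPM (SD, n = 3) in DG and at most 24.5 CPM in any library of the other subfields. Wfs1 was highest in CA1, Amigo2 in CA2 and Dsp in DG. Markers of CA3, glia and interneurons were not analysed here. CA3 replicate 3 stood apart, since 31.1% of its counts fell on the left-out identifiers, against at most 24.4% in every other library, and results that rest on it are given with and without it.

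The 6 mRNAs together made up 1.73% to 3.27% of the column sum of a library. Their share was 2.62 ± 0.449% in CA3 (SD, n = 4), 2.42 ± 0.178% in CA2 (n = 3), 1.94 ± 0.103% in CA1 (n = 4) and 1.79 ± 0.0746% in DG (n = 3). The CA2 and CA3 libraries, from 2.21% upwards, all lay above the CA1 and DG libraries, which reached at most 2.06%. DG replicate 3 had the lowest share, 1.73% (95% Wilson interval 1.72% to 1.74%), and CA3 replicate 3 the highest, 3.27% (3.26% to 3.28%). The share of the left-out identifiers averaged 23.5 ± 5.53% of all counts in CA3, 22.1 ± 1.99% in CA2, 20.2 ± 2.65% in DG and 19.3 ± 3.09% in CA1, and overlapped between all subfields. CA1 replicate 4, for example, had 23.1% of its counts on them and 1.95% of the column sum on the 6 mRNAs. The Wilson intervals cover counting error only, and the libraries of a subfield differed by far more. In dissected tissue, fewer cells or mitochondria and less of each RNA per cell cannot be told apart, and all levels here are relative to the other RNA of the library.

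**Figure D1:**
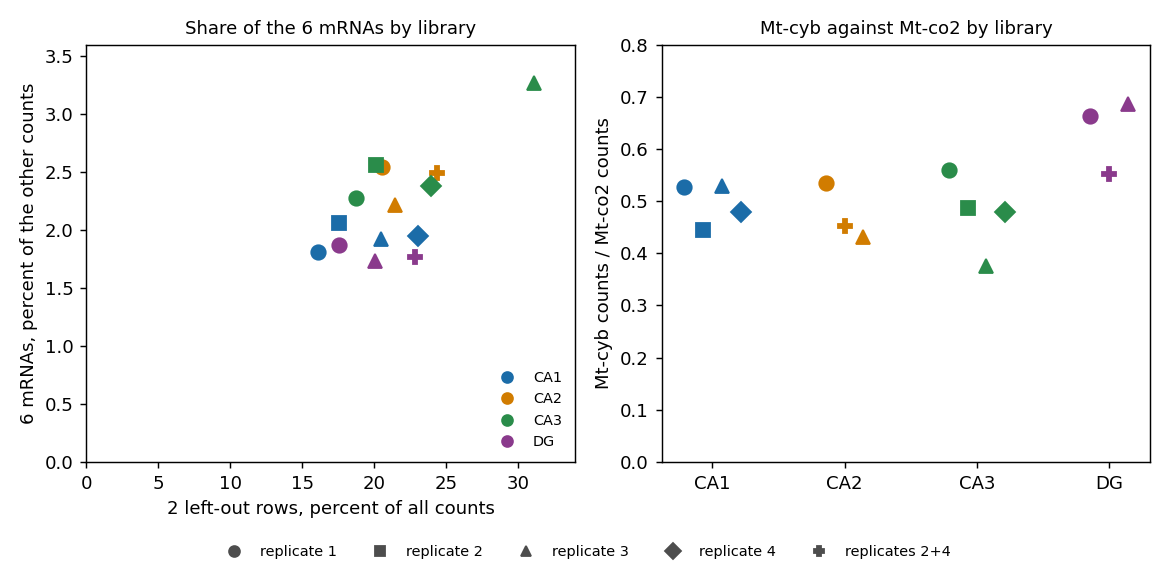
Left, the share of the 6 mRNAs in the column sum of each of the 14 libraries (y axis, percent) against the share of all counts on the 2 left-out identifiers (x axis, percent), where CA3 replicate 3 lies alone at 3.27% and 31.1%. Right, the ratio of Mt-cyb to Mt-co2 counts (y axis) in each library by subfield (x axis), where the 3 DG libraries lie between 0.552 and 0.686; colours mark subfields and symbols replicates.

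Levels are given as counts scaled to 1000000 of the column sum (CPM) and corrected between libraries by the trimmed mean of M-values (TMM), and libraries are listed in the order of their replicate numbers, with a summed pair in the place of replicate 2. Levels were compared between subfields and not between genes, since transcript lengths were not analysed here. The catalytic core of complex IV, Mt-co1, stood at 8963, 11054, 9967 and 9841 CPM in CA1. In CA2 it stood at 12708, 12729.7 and 12523 CPM, in CA3 at 11701, 14100.2, 16972 and 12459 CPM, and in DG at 8632, 8960.3 and 8387 CPM. All CA2 and CA3 libraries thus exceeded all CA1 and DG libraries, while CA1 and DG lay close together and touched without overlap at 8963 and 8960 CPM. Mt-co1 averaged 9956 ± 858 CPM in CA1 (SD, n = 4), 12654 ± 113 in CA2 (n = 3), 13808 ± 2335 in CA3 (n = 4) and 8659.8 ± 288 in DG (n = 3). The 3 CA2 libraries were almost equal, and the spread was widest in CA3, where replicate 3 had the highest value.

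Mt-co2, the subunit that takes electrons from cytochrome c, stood at 2613, 2951, 2566 and 2717 CPM in CA1 and at 4048, 3767 and 3420.1 CPM in CA2. In CA3 it stood at 3382, 3639, 5402 and 3445 CPM and in DG at 2325, 2202 and 2107 CPM. The CA2 and CA3 libraries lay above all others again, the CA1 libraries lay between them and DG, and the CA3 values other than that of replicate 3 fell within or just below the range of CA2. The means of Mt-co2 were 2712 ± 172 CPM in CA1 (SD, n = 4), 3745 ± 315 in CA2 (n = 3), 3967 ± 963 in CA3 (n = 4) and 2211 ± 109 in DG (n = 3). Mt-co3, the remaining complex IV subunit of mitochondrial origin, was at 2936, 2935, 2922 and 2989 CPM in CA1 and at 4555, 4196 and 3353 CPM in CA2. In CA3 Mt-co3 was at 4057, 4287, 6224 and 4291 CPM and in DG at 2681, 2535 and 2475 CPM. The 4 CA1 libraries differed little, the CA2 libraries spread from just above CA1 to the level of CA3, and no library of DG reached CA1. The means of Mt-co3 were 2945 ± 29.7 CPM in CA1 (SD, n = 4), 4035 ± 617 in CA2 (n = 3), 4715 ± 1012 in CA3 (n = 4) and 2564 ± 106 in DG (n = 3).

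Mt-atp6, the subunit of ATP synthase that forms the path of the protons, stood at 1905, 1875, 2003 and 2132 CPM in CA1 and at 2803, 2783 and 2089 CPM in CA2. In CA3 it stood at 2531, 2771, 4224 and 2717 CPM and in DG at 1836, 1699.9 and 1859 CPM. CA2 replicate 3 lay among the CA1 libraries, the other CA2 libraries lay within the range of CA3, and CA3 replicate 3 was far above the rest. Its means were 1979 ± 116 CPM in CA1 (SD, n = 4), 2558 ± 407 in CA2 (n = 3), 3061 ± 782 in CA3 (n = 4) and 1798 ± 85.9 in DG (n = 3). Mt-atp8, a small subunit whose coding sequence overlaps the start of Mt-atp6, had the fewest counts of the 6, between 241 and 1596 in a deposited column, and at 241 counts the counting error alone is 6.44%. It stood at 91.2, 125, 87.3 and 95.1 CPM in CA1 and at 133, 96.4 and 98.6 CPM in CA2. In CA3 Mt-atp8 stood at 109.7, 132, 212 and 134 CPM and in DG at 81.9, 79.5 and 82.8 CPM. CA1, CA2 and CA3 overlapped in Mt-atp8, and the 3 DG libraries lay together below all of them. The means of Mt-atp8 were 99.7 ± 17.2 CPM in CA1 (SD, n = 4), 109 ± 20.6 in CA2 (n = 3), 147 ± 44.7 in CA3 (n = 4) and 81.4 ± 1.68 in DG (n = 3). How reads on the overlap of these genes were counted is not given in the sources used here, so their separate counts are uncertain, as are those of any of the 6 that share reads with copies of mitochondrial sequence in the nuclear genome.

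Mt-cyb stood at 1379, 1314, 1355 and 1301 CPM in CA1 and at 2164, 1705 and 1473 CPM in CA2. In CA3 it stood at 1892, 1773, 2032 and 1649 CPM and in DG at 1541, 1215 and 1446 CPM. Its CA1 libraries were almost equal and fell inside the range of DG, the CA2 range was wide and overlapped DG, and all CA3 libraries lay above CA1 and DG. The means of Mt-cyb were 1337 ± 36.3 CPM in CA1 (SD, n = 4), 1781 ± 351 in CA2 (n = 3), 1837 ± 164 in CA3 (n = 4) and 1401 ± 168 in DG (n = 3). By their means, Mt-co1, Mt-co2, Mt-co3, Mt-atp6 and Mt-atp8 fell in the order CA3, CA2, CA1 and DG, while Mt-cyb fell in the order CA3, CA2, DG and CA1. The place of CA3 before CA2 rested on single libraries in Mt-co2 and Mt-cyb. Without CA2 replicate 3, the fitted log2 difference of CA2 over CA3 was 0.063 for Mt-cyb. Without CA3 replicate 3, this difference was 0.096 for Mt-co2 and 0.00012 for Mt-cyb, and it stayed below 0 in the others. The neighbours CA3 and CA2, and CA1 and DG, were not separated by the test for any of the 6, as given below.

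**Figure D2:**
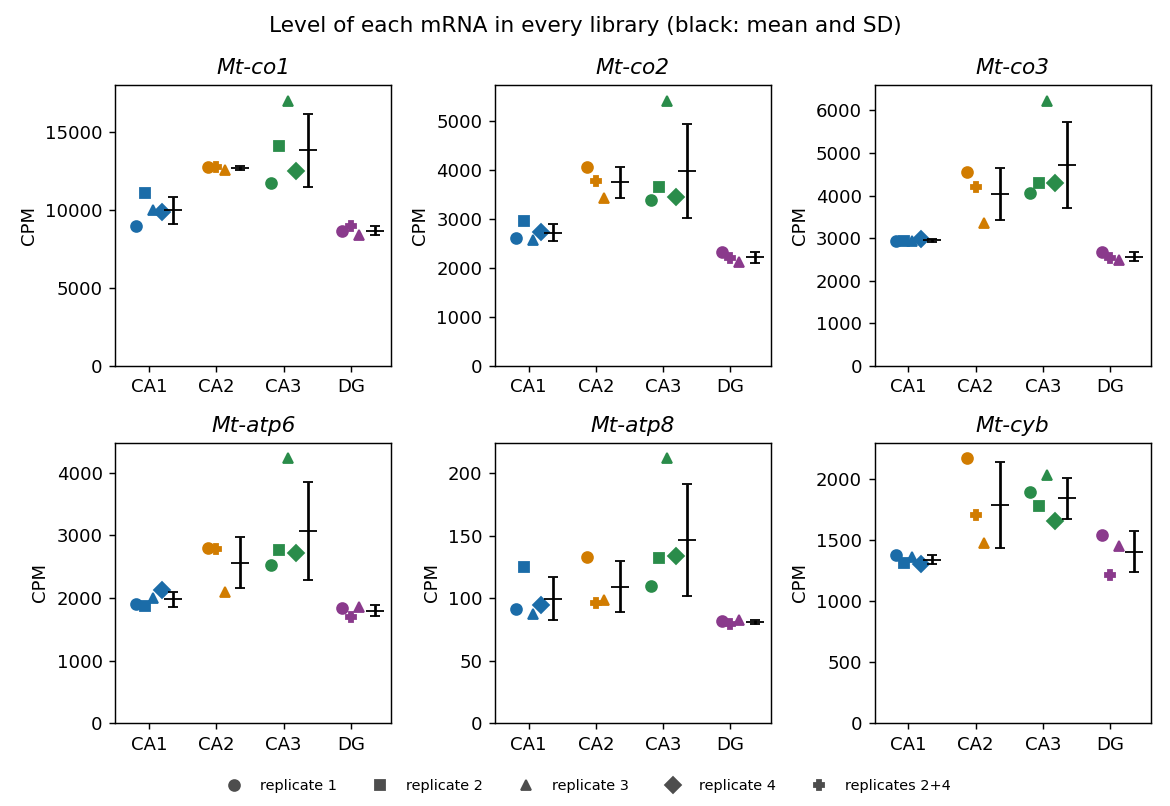
Level of each mRNA (y axis, CPM, from 0) in every library by subfield (x axis), with symbols for replicates and the black bar for mean ± SD (n = 4 in CA1 and CA3, 3 in CA2 and DG). In Mt-co1, Mt-co2 and Mt-co3 all CA2 and CA3 libraries lie above all CA1 and DG libraries, and CA3 replicate 3 has the highest value of every panel but Mt-cyb.

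All pairs of subfields were compared with 1 fit of edgeR's quasi-likelihood test to all 14 libraries. A log2 fold change is the first subfield over the second, its standard error (SE) follows it, and a gene was called at a Benjamini-Hochberg adjusted p under 0.05 over all 17172 genes. Since the study used 4 rats, a fit with the replicate number as a block was run beside it, and its values are given where a call changes. In the block, each summed pair stood under the lower of its numbers. The labels do not say that the number is the rat.

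CA3 held more of all 6 mRNAs than CA1, by 1.37-fold for Mt-cyb to 1.60-fold for Mt-co3. In CA1vsCA3, 6 of 6 were called lower in CA1, where 12.9% of all genes tested were called lower. The log2 fold change was -0.68 (SE 0.117, adjusted p = 0.000158) for Mt-co3, -0.55 (SE 0.120, adjusted p = 0.00160) for Mt-co2 and -0.47 (SE 0.0999, adjusted p = 0.00124) for Mt-co1. For the ATP synthase subunits it was -0.63 (SE 0.131, adjusted p = 0.00106) in Mt-atp6 and -0.56 (SE 0.165, adjusted p = 0.0159) in Mt-atp8, and for Mt-cyb -0.46 (SE 0.107, adjusted p = 0.00305). The median of the 6 was -0.55, against -0.0054 over all genes tested. All CA1 libraries lay below all CA3 libraries in 5 of the 6, Mt-atp8 being the exception, and 12.9% of all genes showed such a gap with CA1 below. Between libraries of the same replicate number, CA1 was below CA3 in all 6 mRNAs in each of 4 numbers, from -1.28 to -0.081 on the log2 scale. These are 4 pairs of libraries, since the 6 mRNAs vary together and are not independent. How many of all genes showed this was not counted. Without CA3 replicate 3, the log2 fold change was -0.50 for Mt-co3, -0.42 for Mt-atp6, -0.39 for Mt-cyb, -0.35 for Mt-co2 and -0.34 for Mt-co1, all still called, while Mt-atp8 came to -0.31 and lost its call (adjusted p = 0.116). The call of Mt-atp8 was also lost without CA1 replicate 1 (adjusted p = 0.0542), without CA1 replicate 3 (adjusted p = 0.0686) and without CA1 replicate 4 (adjusted p = 0.0517).

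CA3 also held more of all 6 mRNAs than DG, and these were the widest of the 6 comparisons by the median of the members. In CA3vsDG, 6 of 6 were called higher in CA3, where 19.6% of all genes were called higher. Complex IV differed by 1.84-fold in Mt-co3, with a log2 fold change of 0.88 (SE 0.129, adjusted p = 1.26e-05), by 1.79-fold in Mt-co2, at 0.84 (SE 0.131, adjusted p = 2.66e-05), and by 1.59-fold in Mt-co1, at 0.67 (SE 0.109, adjusted p = 4.28e-05). ATP synthase differed by 1.81-fold in Mt-atp8, at 0.86 (SE 0.181, adjusted p = 0.000711), and by 1.70-fold in Mt-atp6, at 0.77 (SE 0.144, adjusted p = 0.000206). Mt-cyb had the smallest difference, 1.31-fold, at 0.39 (SE 0.117, adjusted p = 0.0106). The median of the 6 was 0.81, against -0.038 over all genes. All CA3 libraries lay above all DG libraries in 6 of 6, a gap that 20.7% of all genes showed in that direction. In replicate number 1 the 6 differences ran from 0.30 to 0.60 and in replicate number 3 from 0.49 to 1.36 on the log2 scale, and the other numbers have no DG library of their own. Without CA3 replicate 3 all 6 were still called, with values from 0.58 in Mt-co1 to 0.73 in Mt-co3 for the 5 members other than Mt-cyb. The call of Mt-cyb was lost without DG replicates 2 and 4, at 0.32 (adjusted p = 0.0640), and with column sums alone in place of TMM, at 0.22 (adjusted p = 0.129). That scaling lowered the log2 fold changes of all genes by a median of 0.16.

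CA2 differed from DG in the same direction. In CA2vsDG, 5 of 6 were called higher in CA2, where 17.8% of all genes were called higher, and the exception was Mt-atp8. The log2 fold change was 0.76 (SE 0.138, adjusted p = 0.000174) for Mt-co2, 0.65 (SE 0.135, adjusted p = 0.000644) for Mt-co3 and 0.55 (SE 0.115, adjusted p = 0.000773) for Mt-co1, or 1.69-, 1.57- and 1.46-fold. It was 0.51 (SE 0.151, adjusted p = 0.0116) for Mt-atp6 and 0.35 (SE 0.124, adjusted p = 0.0340) for Mt-cyb. Mt-atp8 stood at 0.42 (SE 0.192, adjusted p = 0.0930), with a 95% interval of 0.025 to 0.82, and with the replicate block it was called (adjusted p = 0.0472), but not with the block and without the summed pairs (0.51, adjusted p = 0.0567). The median of the 6 was 0.53, against -0.030 over all genes. The CA2 libraries lay above all DG libraries in 5 of 6, Mt-cyb being the exception, and 23.0% of all genes showed that gap. Within replicate numbers 1 and 3, which are 2 pairs of libraries, all 6 mRNAs were above 0 in each, from 0.027 to 0.80. The call of Mt-cyb was lost without CA2 replicate 1, where it fell to 0.20 (adjusted p = 0.228), without DG replicates 2 and 4 (0.26, adjusted p = 0.155) and without DG replicate 3 (0.37, adjusted p = 0.0598). It was also lost in a fit to CA2 and DG alone (adjusted p = 0.0749) and with the replicate block without the summed pairs (adjusted p = 0.0515), while the block with them kept it. With column sums alone, Mt-cyb at 0.20 (adjusted p = 0.207) and Mt-atp6 at 0.37 (adjusted p = 0.0531) were not called. That scaling lowered the log2 fold changes of all genes by a median of 0.13.

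CA2 also held more than CA1 of the complex IV mRNAs and of Mt-cyb, by 1.27- to 1.38-fold. In CA1vsCA2, 4 of 6 were called lower in CA1, where 7.97% of all genes were called lower. The log2 fold change was -0.47 (SE 0.128, adjusted p = 0.0160) for Mt-co2, -0.45 (SE 0.125, adjusted p = 0.0166) for Mt-co3, -0.41 (SE 0.115, adjusted p = 0.0177) for Mt-cyb and -0.35 (SE 0.107, adjusted p = 0.0330) for Mt-co1. The ATP synthase mRNAs were not called, with -0.37 (SE 0.140, adjusted p = 0.0863) for Mt-atp6 and -0.13 (SE 0.178, adjusted p = 0.719) for Mt-atp8, whose 95% interval ran from -0.50 to 0.24. With the replicate block Mt-atp6 was called as well (adjusted p = 0.0417), but with the block and without the summed pairs it was not, at -0.22 (adjusted p = 0.344), and Mt-co3 lost its call there, at -0.33 (adjusted p = 0.0860). The same 4 that were called had all CA1 libraries below all CA2 libraries, a gap that 13.0% of all genes showed. The median of the 6 was -0.39, against -0.0069 over all genes. Within replicate numbers 1 and 3, which are 2 pairs of libraries, all 6 differences were below 0 in each, from -0.65 to -0.060. Calls were lost when single libraries were left out, and of the 14 fits that each left out 1 library Mt-co1 was called in 3, Mt-co2 in 9, and Mt-co3 and Mt-cyb in 10 each. Calls over all genes changed in these fits too, from 2459 in the main fit to 2220 without CA1 replicate 3 and 2048 without CA1 replicate 4. They came to 1752 without CA2 replicate 1, 2332 without CA2 replicates 2 and 4, 2195 without CA1 replicate 1 and 2525 without CA3 replicate 3. None of the 6 was called without CA1 replicate 3, without CA1 replicate 4 or without CA2 replicate 1, 1 was called without CA2 replicates 2 and 4 and 2 without CA1 replicate 1, while 5 were called without CA3 replicate 3. Without CA2 replicate 1, which had the highest Mt-cyb of all libraries, the log2 fold change of Mt-cyb moved to -0.23. Mt-co1 also lost its call with median-of-ratios size factors, at -0.32 (adjusted p = 0.0534), and with column sums alone, at -0.28 (adjusted p = 0.0781).

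**Figure D3:**
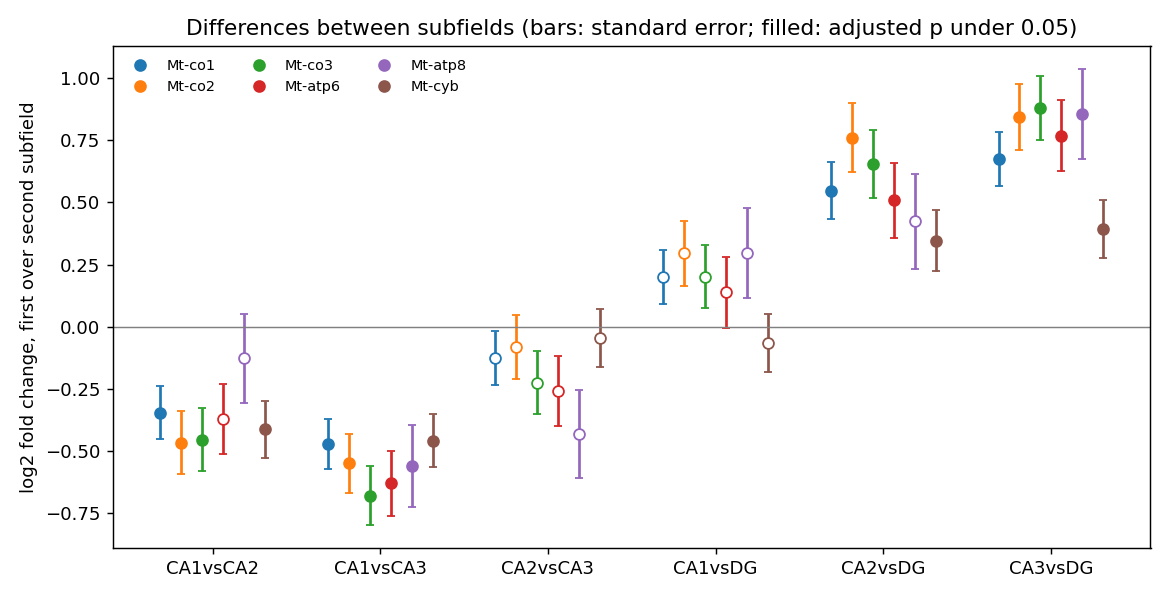
Log2 fold change of each mRNA (y axis, first subfield over second) in the 6 comparisons (x axis), with bars for the standard error and filled symbols for an adjusted p under 0.05. All 6 are filled in CA1vsCA3 and CA3vsDG, 5 in CA2vsDG, 4 in CA1vsCA2 and none in CA2vsCA3 and CA1vsDG.

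Between CA2 and CA3, 0 of 6 were called by edgeR, where 7.71% of all genes were called in either direction, and 1 of 6, Mt-atp8, had an unadjusted p under 0.05. DESeq2 called 0 as well. The largest value was that of Mt-atp8, -0.43 (SE 0.178, adjusted p = 0.180), and the smallest that of Mt-cyb, -0.045 (SE 0.116, adjusted p = 0.910). The 95% intervals ran from -0.35 to 0.099 for Mt-co1, -0.35 to 0.19 for Mt-co2 and -0.49 to 0.039 for Mt-co3 on the log2 scale. The interval was -0.55 to 0.036 for Mt-atp6, -0.80 to -0.06 for Mt-atp8 and -0.29 to 0.20 for Mt-cyb. The libraries overlapped in all 6, whereas 16.5% of all genes had groups that did not overlap. Replicate numbers 1 and 3 went opposite ways, since CA2 was above CA3 in all 6 mRNAs in number 1, by 0.12 to 0.28, and below it in all 6 in number 3, which holds CA3 replicate 3, by -1.10 to -0.44. Without CA3 replicate 3 the values moved towards 0, to -0.018 for Mt-co1, -0.069 for Mt-co3, -0.070 for Mt-atp6 and -0.21 for Mt-atp8, and Mt-co2 turned to 0.096.

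None of the 6 mRNAs was separated between CA1 and DG by the main test. In CA1vsDG, 0 of 6 were called by edgeR and 0 by DESeq2, where 29.6% of all genes were called in either direction, and 1 of 6, Mt-co2, had an unadjusted p under 0.05. Mt-co2 stood at 0.29 (SE 0.130, adjusted p = 0.0967), and with the replicate block it was called (adjusted p = 0.0317). It was also called without CA3 replicate 3 (0.32, adjusted p = 0.00745), a library that enters only through the shared estimate of spread and the scaling. The other complex IV mRNAs had 95% intervals of -0.024 to 0.43 in Mt-co1 and -0.064 to 0.46 in Mt-co3, and the ATP synthase mRNAs of -0.16 to 0.43 in Mt-atp6 and -0.08 to 0.67 in Mt-atp8. Mt-cyb was the only member with a value below 0, -0.066 (SE 0.116, adjusted p = 0.724). In the 5 others the CA1 libraries lay above all DG libraries, by little in Mt-co1 and Mt-atp6, while 16.3% of all genes showed that gap. Within replicate numbers 1 and 3, which are 2 pairs of libraries, the difference was above 0 in every mRNA but Mt-cyb, which was below 0 in each.

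**Figure D4:**
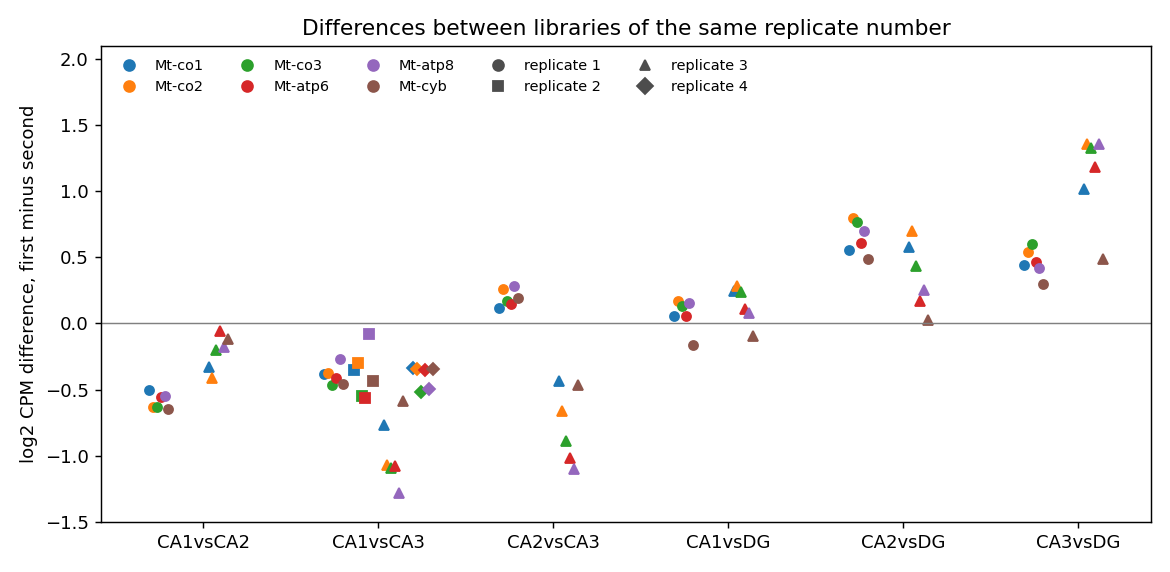
Log2 CPM differences between 2 libraries with the same replicate number (y axis, first minus second subfield) by comparison (x axis), with colours for the mRNAs and symbols for the number; summed pairs are left out. The 6 mRNAs lie below 0 in each of the 4 numbers in CA1vsCA3, and in CA2vsCA3 the 6 of number 1 lie above 0 and the 6 of number 3 below.

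The 6 mRNAs varied together across libraries, and Mt-cyb followed the others least. Over the 14 libraries, which share their scaling, the 15 correlations of log2 CPM among them ran from 0.688, for Mt-atp8 and Mt-cyb, to 0.980, for Mt-co3 and Mt-atp6. Within the 6, Mt-co1 took 52.3 ± 1.89% of the counts in CA1 (SD, n = 4) and 50.3 ± 1.89% in CA3 (n = 4). The counts of Mt-cyb per count of Mt-co2, a ratio that no scaling between libraries can change, were 0.528, 0.445, 0.528 and 0.479 in CA1 and 0.534, 0.453 and 0.431 in CA2. They were 0.559, 0.487, 0.376 and 0.479 in CA3 and 0.663, 0.552 and 0.686 in DG. The DG libraries thus lay at the upper end, and only CA3 replicate 1 reached into their range, above DG replicates 2 and 4. The mean ratio was 0.634 ± 0.0719 in DG (SD, n = 3) and between 0.473 and 0.495 in the other subfields, and the difference was not tested because it was looked for after the values were seen. Mt-atp8 per count of Mt-atp6 ranged from 0.0346 to 0.0667 with no order by subfield.

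The identifiers left out of the column sums varied with the 6 mRNAs. The correlation of log2 CPM with the mean centred log2 profile of the 6, over 14 libraries, was 0.675 for ENSRNOG00000043866 and 0.811 for ENSRNOG00000030478. Fitted with the same scaling, ENSRNOG00000030478 was called lower in CA1 than in CA3, at -0.62 (SE 0.184, adjusted p = 0.0164), and higher in CA3 than in DG, at 0.65 (SE 0.201, adjusted p = 0.0132). ENSRNOG00000043866 was called in no comparison, with -0.45 (SE 0.181, adjusted p = 0.0768) in CA1vsCA3 and 0.44 (SE 0.197, adjusted p = 0.0830) in CA3vsDG. Both were highest in CA3 replicate 3, at 408802 and 74999 CPM, and their part in the differences of the 6 mRNAs was not tested. Of 9401 genes with a mean of at least 10 CPM, outside the 6 and the left-out identifiers, the most alike in profile were ENSRNOG00000033615 (Pearson r = 0.966 over 14 libraries) and ENSRNOG00000016692 (r = 0.945). ENSRNOG00000033615 averaged 314 ± 20.8 CPM in CA1 (SD, n = 4), 444 ± 31.4 in CA2 (n = 3), 484 ± 100.4 in CA3 (n = 4) and 271 ± 26.4 in DG (n = 3), the same order as in Mt-co1. The 86 genes of the lists for nuclear subunits of the respiratory chain, for the other mitochondrial mRNAs and for mitochondrial transcription and RNA processing could not be joined to the identifiers of the count table, and they were not analysed by name. Whether the identifiers most alike in profile belong to these lists, such as that of the other mitochondrial mRNAs, was therefore not checked.

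**Figure D5:**
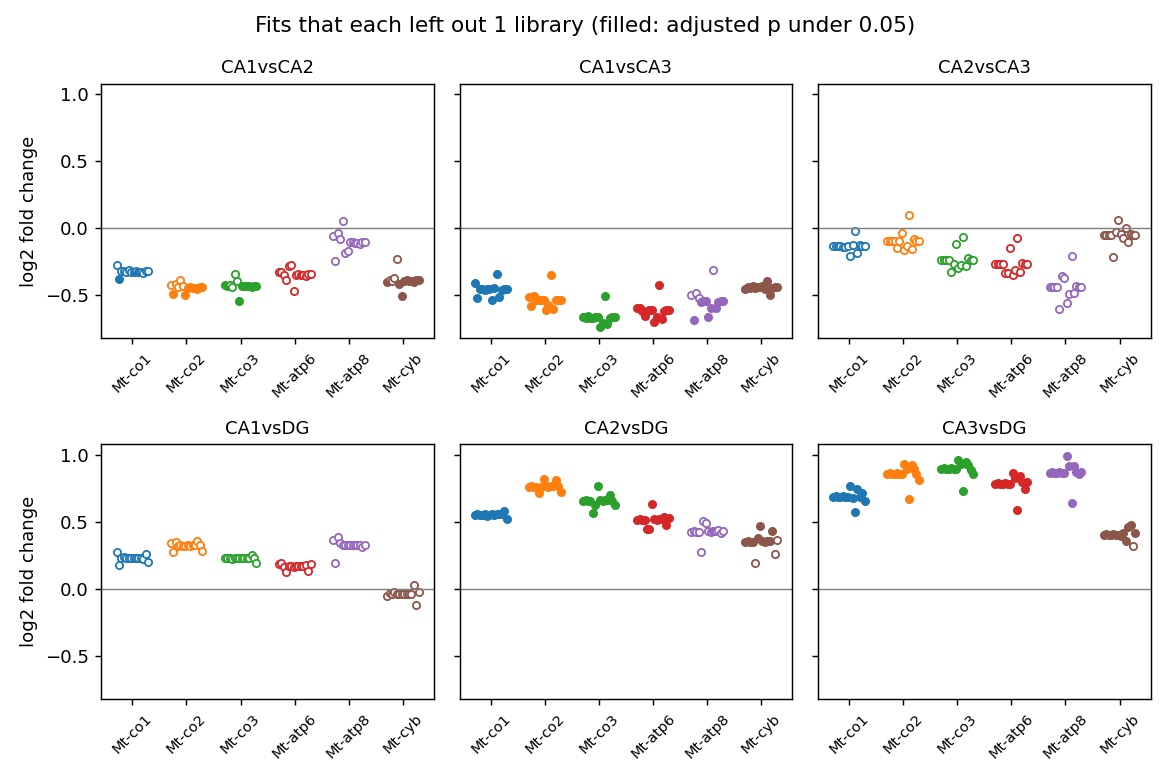
Log2 fold change of each mRNA (y axis, first subfield over second) in the 6 comparisons (panels) in each of 14 fits that left out 1 library, with filled symbols for an adjusted p under 0.05. In CA1vsCA3 and CA3vsDG nearly all symbols are filled, and in CA1vsCA2 many are open although all lie below 0 but 1 of Mt-atp8.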

How the data were processed

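The authors prepared stranded total RNA libraries (TruSeq), sequenced both ends of the fragments, used STAR to align them to Rnor6, and deposited an unnormalized count of reads per Ensembl gene. The program that counted the reads and its strand setting are not given in the sources used here. The authors' DESeq2 tables, with fold changes and p-values for each pair of subfields, were not used.

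The 16 columns of counts were joined to subfield and replicate by name. Libraries of a subfield with a chi-square per degree of freedom under 1.1 were summed, which left 14 libraries. Without ENSRNOG00000043866 and ENSRNOG00000030478, column sums ranged from 2474076 to 9528305, a ratio of 3.85. Mt-atp8, with the fewest counts, has the largest counting error. Genes with more than 10 counts in all (17172) were fitted in R 4.3.3 with edgeR 4.0.16 and limma 3.58.1, with TMM, 1 coefficient per subfield and quasi-likelihood F-tests. The standard error is the log2 fold change divided by the square root of F. The procedure was tested on simulated independent libraries with the same spread for every gene. They held no rat effect and no outlying library, so that test does not cover these features of the data. The 95% intervals use the median degrees of freedom over genes. The members, lists and tests were chosen with earlier results of these data known. The genes named are the 6 members, the left-out identifiers, marker genes of the subfields and the most alike profiles.

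As alternatives, the repeated libraries were kept apart, DESeq2 1.42.0 and other scalings and filters were used, pairs of subfields were fitted alone, libraries were left out in turn, and the replicate number was a block. It was taken as the rat, from the numbered sample descriptions shared by all subfields and the 4 rats of the study. Deviations from the subfield means correlated over 9797 genes with a median of 0.253 between same-numbered libraries (24 pairs, from -0.126 to 0.666, 19 over 0.1). Between the other 72 pairs the median was -0.090 (from -0.543 to 0.432, also 19 over 0.1). The pairs of number 1 were highest, from 0.598 to 0.666. In number 3, CA3 with DG gave -0.126, while CA3 replicate 2 with DG replicate 3 gave 0.432. That the number is the rat is thus less clear outside number 1. The labels do not tell the rat of a summed pair. The libraries of both pairs correlated more with replicate 4 than with replicate 2 of CA1 and of CA3. With CA1, CA2 replicate 2 gave 0.244 against 0.0068, and DG replicate 2 gave 0.258 against 0.067. The pairs were not assigned by these values, and the block was fitted with them under either number. Symbols were matched to identifiers through the study's table of 288 marker genes, which held 5 of 40 marker genes and 0 of 86 pathway genes. Of these marker genes, 1 is not reported here. The RefSeq tables held 0 of the 6 members.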

Additional observations from a re-analysis of the deposited data

Results flagged for a closer look

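In the 12 groups of 4 libraries (the 6 mRNAs in CA1 and in CA3), 3 held a library farther from the others than Dixon's 95% limit for 4 values, and in all 3 it was CA3 replicate 3. Mt-co2 stood at 5402 CPM there, against 3639 in the next library, with a gap of 0.873 of the range. Mt-co3 stood at 6224 CPM, against 4291, with a gap of 0.892. Mt-atp6 stood at 4224 CPM, against 2771, with a gap of 0.858. Chance alone marks about 1 in 20 groups, and the 6 mRNAs share their libraries, so these are not independent. The same library had 31.1% of its counts on the left-out identifiers, and the part of that share in its high values was not tested. Groups of 3 libraries were not examined in this way.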

How the results depend on the processing

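In CA1vsCA3 and CA3vsDG the count of members called stayed within 5 to 6 under all alternatives run. Calls over all genes ran there from 3624 to 5810 in CA1vsCA3 and from 5718 to 8344 in CA3vsDG. In CA2vsDG the count of members was 3 with column sums alone, where calls over all genes rose from 6108 to 6358. In CA2vsCA3 it was 1 with a replicate block over all 16 libraries, where they rose from 1324 to 2616. In CA1vsDG it was 1 with all 16 libraries, 1 without a filter on low counts, 2 in fits to the 2 subfields alone, 1 with the replicate block under either number of the summed pairs, 2 with the block over all 16 libraries and 1 with the block without the repeated pairs. Over all genes, the main fit called 5075 in CA1vsDG. In the order just given, the alternatives called 5679, 5068, 5084, 6040 (lower number) and 5907 (higher number), 6605 and 5107. With libraries left out in turn, the count of members ran from 0 to 5 in CA1vsCA2, from 0 to 1 in CA1vsDG and from 4 to 6 in CA2vsDG. Calls over all genes ran from 1706 to 2525, from 4062 to 5155 and from 5070 to 6302 in these comparisons. Over such fits the log2 fold change crossed 0 for Mt-atp8 in CA1vsCA2 (-0.24 to 0.053), Mt-co2 in CA2vsCA3 (-0.16 to 0.096), Mt-cyb in CA2vsCA3 (-0.22 to 0.063, and 0.00012 without CA3 replicate 3) and Mt-cyb in CA1vsDG (-0.12 to 0.032), none of them called. The replicate block changed the calls of Mt-atp6 in CA1vsCA2, Mt-co2 in CA1vsDG and Mt-atp8 in CA2vsDG, and with the summed pairs under either number it changed no other. With the pairs under the lower number it also called more of all genes in every comparison, for example 3302 against 2459 in CA1vsCA2. Over the 36 values of the 6 members, the 13 alternatives other than leaving out 1 library gave 439 values with the same call, 21 that gained it and 8 that lost it, and no sign changed. Leaving out any 1 library also moved the log2 fold changes of all genes in CA1vsDG by a median of 0.013 to 0.037. The causes of these changes were not tested. Counting error was largest for Mt-atp8, up to 6.44% in a deposited column. Its libraries differed by more in CA1, CA2 and CA3, where the SD was 17.2%, 18.9% and 30.4% of the mean. In DG the SD was 2.07% of the mean.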
